A study of Mus musculus with 34 samples.

Results

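Macrophages sorted from the colonic lamina propria of Il10ra-deficient mice that received antibiotics in their drinking water were compared with macrophages of Il10ra-deficient mice that received no treatment. The libraries were chosen by title: 4 treated (IL10R_abx_160, IL10R_abx_161, IL10R_abx_495 and IL10R_abx_497) and 5 untreated (IL10R_27, IL10R_32, IL10R_61, IL10R_67 and IL10R_68), 9 of the 34 libraries of the series. All genes with a name in their table were used, 8816 in all, of which 6612 passed a filter on low values and were tested. The mice were C57BL/6, aged 6 to 7 weeks, and the sorted cells were CD45+ CD11b+ CD64+, intermediate for CD11c and negative for Ly6c and CD103. Both groups lack the IL-10 receptor alpha chain in gut macrophages, going by the series title, and both titles carry the term 5C5, which the labels do not explain. The labels do not give the allele, its driver, the antibiotics or how long they were given. Values of the same table served as controls: 3 libraries titled littermate_abx, from littermates that drank the antibiotics and whose genotype is not labelled, and 2 untreated libraries titled CX. A further 4 untreated libraries titled IL10R_P19 were read beside them. Whether replicates stand for different animals is not labelled, and the p-values below describe spread from library to library, which may be technical.

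Interleukin-10 signals through its receptor on macrophages to STAT3, which restrains the genes these cells switch on when they meet bacteria. Colonic macrophages lie beneath a single layer of epithelium, are replaced from blood monocytes, and gain scavenger receptors and antigen presentation genes as they mature into resident cells. Mice whose macrophages cannot sense IL-10 develop colitis that depends on gut bacteria, and the series title names macrophage IL-23 and the epithelial response to IL-22 in it. Epithelium exposed to IL-22 makes antibacterial lectins of the Reg3 family. Antibiotics in drinking water deplete the bacteria, which is the setting of the comparison made here.

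Values below are normalised read counts, the reads of a gene divided by 1 factor per library, and values of single libraries are listed in the order of the titles given above. Library depth, summed over genes with a name, ran from 747046 to 1646887 reads in IL10R_abx and from 1100692 to 1974254 in IL10R. A log2 change is the mean of IL10R_abx minus the mean of IL10R on the scale log2(value + 0.997), and a gene was called changed at a limma adjusted p under 0.05. In a principal component analysis the first component held 65.8% of the variance and lay at 32.5 to 46.3 in IL10R_abx, against -43.9 to -36.4 in IL10R. On the third component IL10R_abx_161 lay at -38.9 and IL10R_27 at 20.8, the lowest and the highest of the 18 libraries of the table. The targeted gene, Il10ra, stood at 8.71, 7.52, 1.70 and 2.88 in IL10R_abx, against 31.2, 15.6, 10.970, 4.56 and 11.3 in IL10R, a change of -1.31 (SE 0.50, limma adjusted p = 0.0299). The groups overlapped, and the call was lost with only the groups compared in the fit or with library quality weights (limma adjusted p = 0.363 and 0.0802). It was also lost without IL10R_abx_495, IL10R_abx_497, IL10R_27 or IL10R_32 (limma adjusted p = 0.0987, 0.0716, 0.0832 and 0.0602). All 9 values lay far below those of littermate_abx (145, 191 and 138) and CX (248 and 284), so the targeted gene was low in every library labelled deficient.

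Markers of 2 cell types moved with the groups in opposite directions. Of 12 macrophage markers 11 were listed, among them Cd68, Csf1r, Cx3cr1 and the complement genes C1qa, C1qb and C1qc, and all 11 rose, with changes between 1.01 and 2.25. Together they made up 2.06% to 2.63% of the library in IL10R_abx, against 0.766% to 1.04% in IL10R. All 15 epithelial markers, such as the keratins Krt8 and Krt19 and the mucin Muc2, fell, with changes between -3.06 and -1.40, and their summed share was 0.293% to 0.474% in IL10R_abx, against 1.46% to 1.98% in IL10R. The groups did not overlap in either share. The sort gate selects no epithelial cells, yet epithelial RNA was present in the 9 libraries. A short panel of T and NK cell markers and one of eosinophils and mast cells (9 and 6 genes) had no row in the table. Of a longer T and NK cell list of 30 genes 3 were listed (Cd4, Thy1 and Ccl5), with a summed share of 0.0183% to 0.0489% in IL10R_abx, against 0.0145% to 0.171% in IL10R. Of these Cd4, which gut macrophages can also express, rose by 2.01 (SE 0.27, limma adjusted p = 4.13e-06). Of a longer eosinophil and mast cell list of 19 genes 1, Ear2, was listed, at 0% to 0.000570% in IL10R_abx, against 0.000182% to 0.00215% in IL10R. The 6 listed markers of stroma and endothelium summed to 0.0280% to 0.0587% in IL10R_abx, against 0.0672% to 0.142% in IL10R. In bulk samples fewer cells of a type and less RNA per cell cannot be told apart. How far the shift in epithelial and macrophage RNA sets the changes of other genes was not tested, but several groups of genes below are also given relative to the 11 macrophage markers, whose mean rose by 1.57 (2.97-fold), or to the 15 epithelial markers, whose mean changed by -2.10 (4.29-fold lower). Both of these scales were chosen after the values had been seen.

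**Figure D1:**
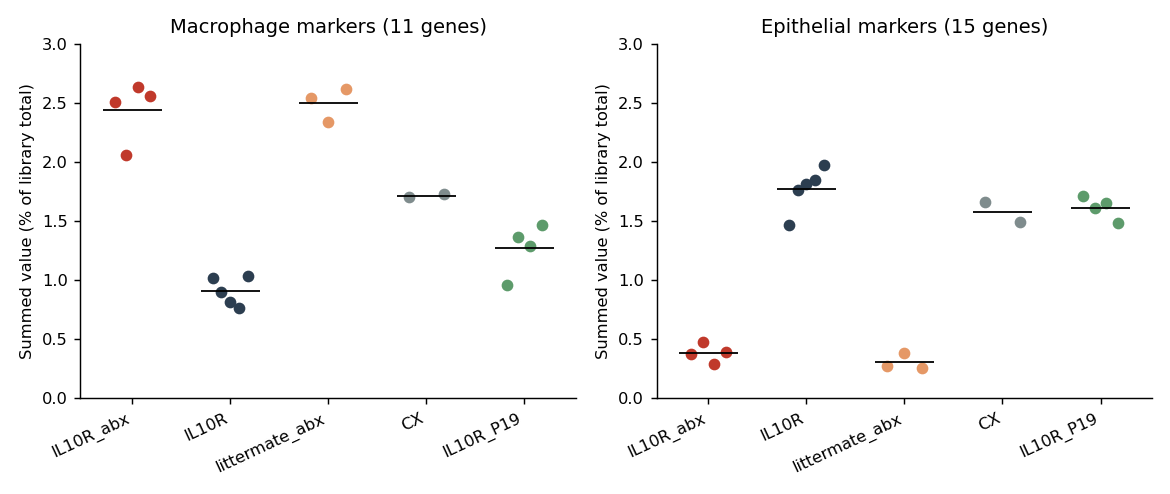
Summed values of 11 macrophage markers (left) and 15 epithelial markers (right) as a percentage of each library's total, 1 point per library with the group mean as a line. IL10R_abx libraries sit at 2.06% to 2.63% for macrophage markers, all above the 0.766% to 1.04% of IL10R, and at 0.293% to 0.474% for epithelial markers, all below the 1.46% to 1.98% of IL10R.

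Of 6612 genes, 3823 (57.8%) changed, 2020 higher (30.6%) and 1803 lower (27.3%) in IL10R_abx, and in 2786 genes (42.1%) the 2 groups of libraries did not overlap. The 12 largest rises and 12 largest falls named below were ranked only among called genes without such overlap. Their separation between the groups therefore follows from that choice. A change of at least 2-fold was called higher in 938 genes and lower in 833. Scaling each library to CPM in place of the factors in the table put the median change of all genes at -0.17, against 0.03 with the deposited factors, and gave 1531 higher and 2392 lower calls. The split of calls between the directions therefore depends on the scaling (52.8% higher in the main fit, 39.0% by CPM), and the counts and medians of the lists below stand against these shares (30.6% higher and 27.3% lower) and the median of 0.03 over all genes.

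Among the largest falls were genes of antibacterial defence and injury of the epithelium. Of 20 genes in that list 17 were listed, 11 were tested and 10 fell, with a median change of -3.80 over the tested members, against 0.03 over all genes. The filter used the mean over all 18 libraries. Members such as Clca4b and Plet1, low in every treated library, passed it only through libraries outside IL10R_abx. The share that fell among tested members is therefore partly set by the filter. This list, like the others, was drawn up with earlier results of these data known. Its count and median are therefore also partly set by the choice of members. The exception was Tifa, an adaptor of bacterial sensing, at 0.04. The list took up 0.0409% to 0.0537% of a library in IL10R_abx, against 0.378% to 1.41% in IL10R.

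Reg3b and Reg3g encode lectins that bind and kill bacteria at the mucosal surface. Reg3b stood at 78.4, 5.64, 124 and 0 in IL10R_abx, against 7459, 258, 1535, 2808 and 821 in IL10R, a change of -6.52 (SE 1.38, limma adjusted p = 0.000679). Reg3g stood at 43.5, 3.76, 47.5 and 0 in IL10R_abx, against 5368, 133, 744, 1753 and 299 in IL10R, a change of -6.27 (SE 1.18, limma adjusted p = 0.000236). For both genes the lowest untreated library lay above the highest treated one, although the untreated libraries alone spread over more than an order of magnitude and IL10R_27 was the highest. IL10R_abx_497 held no read of either gene, and a count of 0 there allows up to 2.88. The promoters of the pair are shown because the 2 genes, neighbours on chromosome 6, fell together. They are RefSeq sequences of build GRCm38.p6, 250 bases before to 50 bases after the start, of Reg3b (chr6:78370635-78370934, plus strand) and Reg3g (chr6:78468825-78469124, minus strand), 97.9 kb apart, with capitals for a match to TTCNNNGAA, letters that STAT factors can bind, searched on both strands.
Reg3b: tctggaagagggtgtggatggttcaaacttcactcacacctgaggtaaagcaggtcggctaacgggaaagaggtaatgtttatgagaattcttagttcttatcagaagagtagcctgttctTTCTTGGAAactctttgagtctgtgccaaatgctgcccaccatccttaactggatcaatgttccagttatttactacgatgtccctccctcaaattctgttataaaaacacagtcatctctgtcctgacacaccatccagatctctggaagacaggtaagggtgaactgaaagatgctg
Reg3g: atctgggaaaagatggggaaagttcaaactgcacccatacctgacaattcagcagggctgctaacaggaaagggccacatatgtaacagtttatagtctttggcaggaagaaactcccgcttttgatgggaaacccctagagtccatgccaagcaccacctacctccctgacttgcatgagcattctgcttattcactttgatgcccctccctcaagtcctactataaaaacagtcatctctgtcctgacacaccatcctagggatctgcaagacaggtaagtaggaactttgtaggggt
The Reg3b window held 1 match, 129 bases before the start, and the Reg3g window held none. Of the 12 genes that fell most among those with a mean above the median and no overlap between the groups, 11 had a promoter in the table, and 2 of these (Reg3b and Sprr2a3) held a match, against 8.47% of all 27025 promoters. Among the 1398 called lower genes with a promoter the share was 6.80%, and among the 1582 called higher genes 6.45%.

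Other epithelial genes of this kind fell too. Clca4b, which encodes a chloride channel accessory protein, stood at 4.35, 3.76, 13.6 and 0 in IL10R_abx, against 915, 319, 346, 289 and 18.5 in IL10R, a change of -5.68 (SE 0.99, limma adjusted p = 6.59e-05). Plet1, a surface protein of epithelial cells, stood at 6.53, 5.64, 5.09 and 4.80 in IL10R_abx, against 917, 235, 316, 166 and 35.4 in IL10R, a change of -5.02 (SE 0.77, limma adjusted p = 1.75e-05). In both genes IL10R_68 was the lowest untreated library by a wide margin and still lay above every treated one. Clca3b changed by -3.80 and Retnlb, a goblet cell protein with antibacterial activity, by -3.31, and IL10R_68 stood apart in Retnlb with 2945, against 469 to 769 in the other untreated libraries. Sprr2a3 and Sprr2a1, small proline-rich proteins of surface epithelia, changed by -3.94 and -3.46 with little spread. Sprr2a1 stood at 97.9, 109, 109 and 96.1 in IL10R_abx, against 1137, 1452, 1147, 1046 and 964 in IL10R. These 2 Sprr2a genes are near-identical copies, and how reads that fit both were counted is not given in the sources used here.

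Several secreted or inflammatory genes outside that list fell as far. Nos2, the inducible nitric oxide synthase of activated macrophages and of epithelium, stood at 2.18, 9.40, 1.70 and 2.88 in IL10R_abx, against 434, 237, 164, 53.9 and 16.9 in IL10R, a change of -4.69 (SE 0.88, limma adjusted p = 0.00015). The 4 treated libraries held 10 reads of it in all, so the size of the fall rests on few reads, while the 5 untreated libraries held 894 and ran without overlap down to IL10R_68. Ddah1, which breaks down an endogenous inhibitor of nitric oxide synthases, changed by -3.96 (SE 0.29, limma adjusted p = 3.38e-09). Lrg1, an acute-phase glycoprotein, stood at 13.1, 9.40, 18.7 and 13.5 in IL10R_abx, against 1895, 188, 225, 277 and 19.3 in IL10R, a change of -3.91 (SE 0.81, limma adjusted p = 0.000468). Saa3, a serum amyloid A protein made in inflammation, stood at 4.35, 7.52, 0 and 7.69 in IL10R_abx, against 1039, 114, 45.9, 16.7 and 8.04 in IL10R, a change of -3.79 (SE 1.09, limma adjusted p = 0.00556). In Lrg1 and Saa3 IL10R_27 was the highest library and IL10R_68 came close to the treated ones. Tac1, the precursor of the neuropeptide substance P, stood at 4.35, 11.3, 3.39 and 5.77 in IL10R_abx, against 468, 200.2, 170.0, 112 and 24.9 in IL10R, a change of -4.36 (SE 0.60, limma adjusted p = 4.74e-06). Cd177, a surface protein best known from neutrophils, stood at 8.71, 18.8, 8.48 and 10.6 in IL10R_abx, against 420.0, 436, 542, 485 and 225 in IL10R, a change of -5.07 (SE 0.32, limma adjusted p = 1.79e-09). The untreated libraries lay between 225 and 542, a narrow range beside those of Lrg1 and Saa3. S100a9, an alarmin of neutrophils, stood at 10.9, 3.76, 3.39 and 2.88 in IL10R_abx, against 925, 31.1, 12.3, 6.83 and 4.83 in IL10R, a log2 value of -2.34 (SE 1.39, limma adjusted p = 0.158) that did not pass, with IL10R_27 far above the other 8 libraries. S100a9 passed the filter mean of 40.4 only through libraries outside IL10R_abx, as did Nos2, Lrg1, Saa3, Tac1 and Cd177. Of 5 tested neutrophil markers 3 rose, Fcgr3 (1.86), Cxcl2 (1.503) and Csf3r (1.23), of which Fcgr3 and Cxcl2 are also expressed by macrophages. The remaining call was Pglyrp1, a protein that binds bacterial peptidoglycan, which fell (-2.79), and the median was 1.23.

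**Figure D2:**
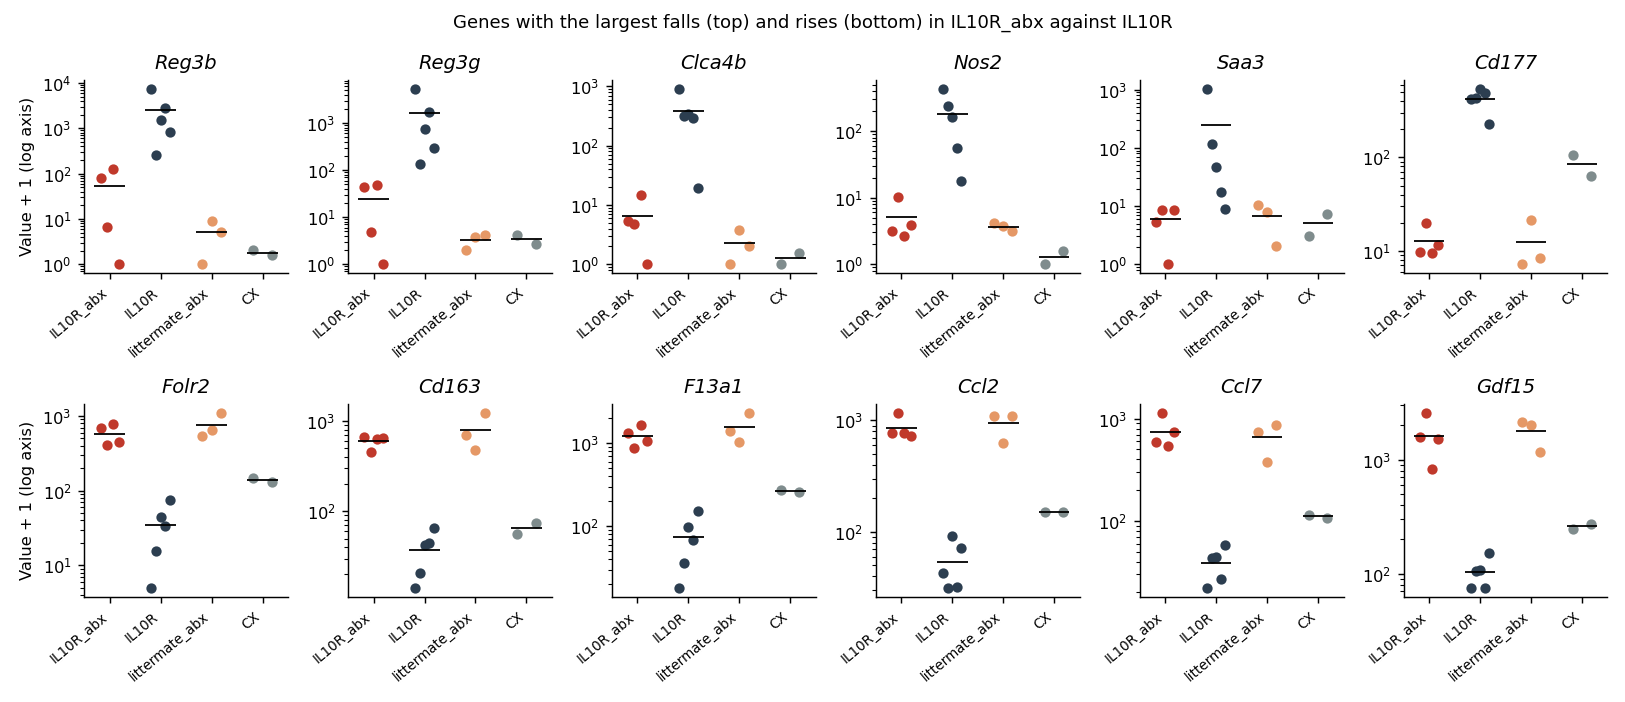
Normalised read count plus 1 (log axis) of 6 genes with large falls (top) and 6 with large rises (bottom), 1 point per library with the mean of each group as a line. In each panel the IL10R_abx points lie on one side of all IL10R points, which follows from ranking only genes without overlap (42.1% of those tested). The IL10R points of Reg3b run from 258 to 7459.

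Markers of ordinary epithelium fell as well, with medians nearer 0. Of 31 tested colonocyte markers 30 fell (median -1.96), and of 17 tested goblet and secretory markers 16 fell (median -2.26). Agr2, a protein folding enzyme of goblet cells, stood at 429, 451, 496.8 and 443 in IL10R_abx, against 3224, 3390.1, 2823, 3454 and 3962 in IL10R, a change of -2.88 (SE 0.19, limma adjusted p = 1.69e-09). Krt8, a keratin of simple epithelia, stood at 868, 952, 536 and 942 in IL10R_abx, against 3417, 3438, 3408, 3703 and 3499 in IL10R, a change of -2.12 (SE 0.15, limma adjusted p = 2.44e-09). Both genes were even among the untreated libraries and well apart from the treated ones. Tff3, a goblet cell trefoil peptide, changed by -2.54, Muc13, a membrane mucin, by -2.78, and Pigr, the receptor that carries IgA across the epithelium, by -1.70. Relative to the 15 epithelial markers 6191 genes were called (93.6%), of which 54 were lower in IL10R_abx (0.817% of those tested) and 6137 higher (92.8%). Of the 11 tested members of the antibacterial and injury list, 7 were among the lower and 1 was higher. Reg3b stood at -4.42, Reg3g at -4.17, Clca4b at -3.58 and Plet1 at -2.92 (limma adjusted p = 0.0138, 0.00758, 0.00132 and 0.000817). Nos2, outside that list, was also lower at -2.59 (limma adjusted p = 0.008). Reg3g, Clca4b, Plet1 and Nos2 passed the filter only through libraries outside IL10R_abx. The count of 7 is therefore partly set by the filter and by the choice of the list. Of the colonocyte markers 3 were lower and 8 higher on this scale, of the goblet markers 5 lower and 1 higher. Since the 15 markers are themselves colonocyte and goblet genes, these last counts describe spread around their mean.

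Among the largest rises were genes of mature resident macrophages. Of 40 resident markers 36 were tested and 34 rose, with a median of 2.16. Members such as Folr2 and Cd163, low in the untreated libraries, passed the filter only through libraries outside IL10R. The share that rose among tested members is therefore partly set by the filter. The exceptions were the efferocytosis receptor Axl (0.14) and the TGF-beta receptor Tgfbr1 (0.33). Summed, the list took up 5.43% to 7.26% of a library in IL10R_abx, against 1.90% to 2.81% in IL10R. Cd163, the scavenger receptor for haemoglobin bound to haptoglobin, stood at 662, 457, 632 and 651 in IL10R_abx, against 13.004, 19.7, 41.8, 44.0 and 65.2 in IL10R, a change of 4.19 (SE 0.37, limma adjusted p = 6.82e-08). Folr2, a folate receptor of tissue macrophages, stood at 681, 406, 779.9 and 443 in IL10R_abx, against 3.90, 14.5, 43.9, 32.7 and 74.0 in IL10R, a change of 4.51 (SE 0.60, limma adjusted p = 7.46e-06). Lyve1, a hyaluronan receptor of vessel-associated macrophages, stood at 511, 386, 1049.5 and 468 in IL10R_abx, against 24.7, 31.1, 56.2, 38.7 and 74.8 in IL10R, a change of 3.71 (SE 0.36, limma adjusted p = 1.53e-07). In all 3 genes IL10R_27 was the lowest library and IL10R_68 the highest of the untreated ones, and the lowest treated library was several times higher than either.

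F13a1, the coagulation factor XIII A chain made by macrophages, changed by 4.37 (SE 0.48, limma adjusted p = 9.34e-07) and Fcna, a lectin that starts the complement cascade, by 3.76 (SE 0.61, limma adjusted p = 6.03e-05). Pf4, the chemokine CXCL4, stood at 3863, 2686, 4293 and 2970.0 in IL10R_abx, against 96.2, 221, 405, 317 and 684 in IL10R, a change of 3.57 (SE 0.42, limma adjusted p = 1.85e-06). Fcrls, a scavenger-type Fc receptor-like protein, changed by 3.71. Ltc4s, the enzyme that makes leukotriene C4, changed by 3.31. The lectin Clec10a, the scavenger receptor Stab1 and the carbonyl reductase Cbr2 changed by 3.01, 3.22 and 2.99. The core genes of the lineage rose less: C1qa stood at 13168, 10790.0, 10861 and 10800.1 in IL10R_abx, against 4249.7, 3549.8, 3089, 2865 and 3958 in IL10R, a change of 1.70 (SE 0.14, limma adjusted p = 1.42e-08). IL10R_abx_160 was the highest of the treated libraries in C1qa and the other 3 lay within 10790.0 to 10861.

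The promoters of Fcna (chr2:25627925-25628224, minus strand) and Pf4 (chr5:90772185-90772484, plus strand) are shown as examples from the genes that rose. They are again RefSeq sequences of build GRCm38.p6, from 250 bases before to 50 after the start. The pair was not chosen by a rule, and both hold a match to the letters searched, so they do not stand for the other risers. Capitals mark GAGGAA or its reverse complement TTCCTC, letters that the myeloid factor PU.1 can bind.
Fcna: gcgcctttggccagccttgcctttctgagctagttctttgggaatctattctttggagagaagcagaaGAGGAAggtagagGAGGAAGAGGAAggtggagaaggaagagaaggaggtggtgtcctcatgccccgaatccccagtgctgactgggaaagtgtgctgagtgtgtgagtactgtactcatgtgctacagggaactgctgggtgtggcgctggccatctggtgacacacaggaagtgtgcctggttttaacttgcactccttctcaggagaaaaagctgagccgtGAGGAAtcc
Pf4: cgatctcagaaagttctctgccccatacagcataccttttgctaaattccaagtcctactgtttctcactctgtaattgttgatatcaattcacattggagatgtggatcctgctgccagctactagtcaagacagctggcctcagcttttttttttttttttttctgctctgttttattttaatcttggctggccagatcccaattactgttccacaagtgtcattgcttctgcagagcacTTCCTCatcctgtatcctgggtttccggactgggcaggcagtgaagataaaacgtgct
Fcna held 4 matches and Pf4 held 1, on the other strand, beginning 8 bases before its start. A match was present in 5 of the 9 genes with a promoter in the table among the 12 that rose most under the same limits on mean and overlap and in 2 of 11 among the 12 that fell most, against 28.3% of all 27025 promoters. It was present in 30.8% of the called higher and 26.9% of the called lower genes with a promoter.

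Relative to the 11 macrophage markers, fewer genes were higher. On that scale 5924 genes were called (89.6%), of which 141 were higher in IL10R_abx (2.13%) and 5783 lower (87.5%), with a median of -1.54 over all genes. Of the 2020 genes called higher before, 141 stayed higher, 665 were not called and 1214 were called lower. Of the resident markers 18 were higher and 4 lower, 5 of the 11 reference markers being themselves in that list. Folr2 changed by 2.95 (SE 0.63, limma adjusted p = 0.000496), F13a1 by 2.80 (SE 0.50, limma adjusted p = 7.94e-05), Cd163 by 2.62 (SE 0.37, limma adjusted p = 2.74e-06) and Lyve1 by 2.14 (SE 0.33, limma adjusted p = 3.48e-06). Pf4, Stab1 and Cbr2 changed by 2.001, 1.65 and 1.43 and were called. Apoe, the apolipoprotein of lipid-handling macrophages, stood at -0.20 and Tgfb1, which encodes TGF-beta, at 0.04, and neither passed.

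**Figure D3:**
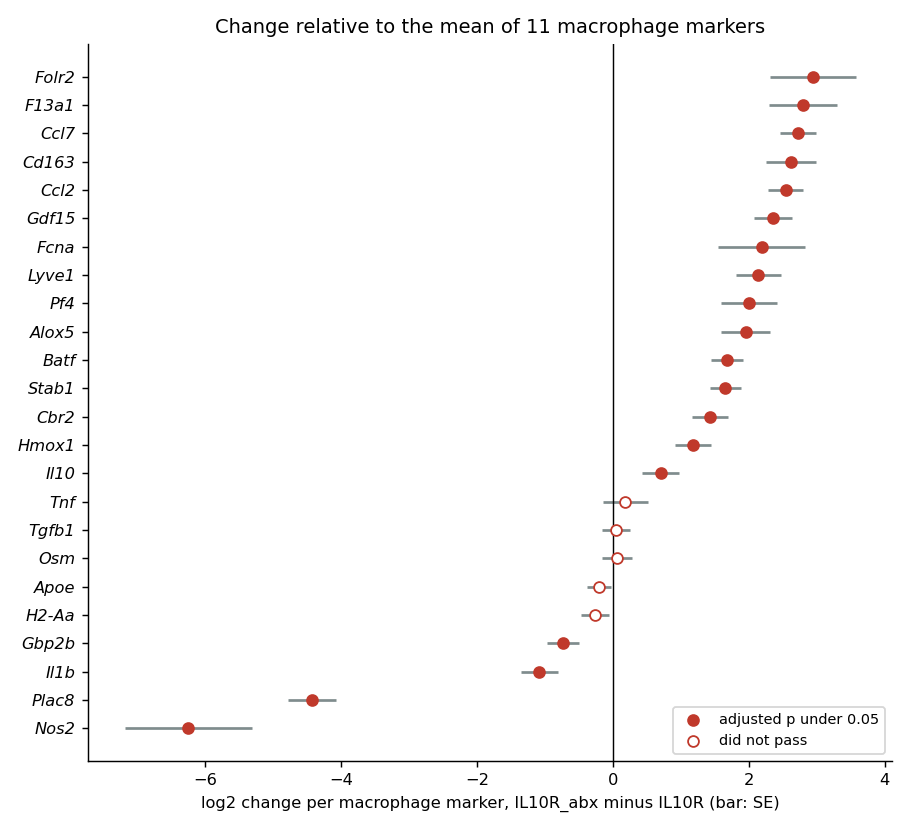
log2 change of 24 genes in IL10R_abx minus IL10R relative to the mean of 11 macrophage markers, with bars for 1 SE and filled points where the limma adjusted p was under 0.05. Folr2, F13a1, Ccl7, Cd163 and Ccl2 lie above 2.5, Tnf, Tgfb1, Osm, Apoe and H2-Aa lie near 0 and did not pass, and Il1b, Plac8 and Nos2 lie below 0.

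Chemokines that attract monocytes rose with the resident genes. Of 17 tested chemokines 11 rose and 1, the neutrophil attractant Cxcl5, fell (-4.24), with a median of 1.67. Ccl2, the main ligand of CCR2, stood at 775, 1166, 775 and 725 in IL10R_abx, against 41.6, 30.1, 91.2, 31.1 and 70.8 in IL10R, a change of 4.11 (SE 0.28, limma adjusted p = 2.44e-09). Ccl7, another ligand of that receptor, stood at 585, 1138, 534 and 736 in IL10R_abx, against 20.8, 42.5, 43.2, 25.8 and 57.1 in IL10R, a change of 4.29 (SE 0.29, limma adjusted p = 2.75e-09). For both genes the treated libraries lay far above any untreated one, and relative to macrophage markers the changes were 2.54 and 2.72, both called. Ccl7 passed the filter only through libraries outside IL10R. Ccl8 changed by 2.08 and Cxcl2, a neutrophil attractant, by 1.503. The T cell attractants Ccl5, Cxcl9 and Cxcl10 had log2 values of -0.43, -0.05 and 0.19 and missed the threshold (limma adjusted p = 0.631, 0.943 and 0.695). Below the filter, and in the fit without one, the chemokines Ccl17, Ccl22, Cxcl14 and Cx3cl1 were lower (-2.91, -2.40, -2.27 and -2.05, limma adjusted p = 0.00152, 0.00109, 0.000917 and 7.48e-06). Gdf15, a stress-induced cytokine of the TGF-beta family, stood at 1578, 2573, 826 and 1529.7 in IL10R_abx, against 74.1, 104.7, 106.3, 72.9 and 149.6 in IL10R, a change of 3.93 (SE 0.27, limma adjusted p = 3.38e-09).

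The tested pro-inflammatory cytokines did not fall as a group. Of 24 genes in that list 12 were listed and 8 tested. Of these 5 rose and 1, Il18, fell (-1.18), with a median of 1.64. Relative to macrophage markers 1 was higher and 2 lower, with a median of 0.07, against -1.54 over all genes. Il1b stood at 2000.2, 3314, 1229 and 1575 in IL10R_abx, against 1375, 1264, 1761, 1283 and 1144 in IL10R, and the change of 0.49 (SE 0.30, limma adjusted p = 0.173) did not pass, with IL10R_abx_495 and IL10R_abx_497 within the untreated range. Tnf stood at 372, 523, 248 and 269 in IL10R_abx, against 203, 68.4, 134, 66.8 and 78.8 in IL10R, a change of 1.75 (SE 0.39, limma adjusted p = 0.00092), and here the treated libraries lay above all untreated ones. Relative to macrophage markers Il1b was lower at -1.08 (SE 0.27, limma adjusted p = 0.000628), and Tnf, at 0.18 (SE 0.33, limma adjusted p = 0.612), did not pass. Tnfsf9, the ligand of the co-stimulatory receptor CD137, changed by 2.40, Il15 by 1.60, the cytokine subunit gene Ebi3 by 1.65 and Osm, oncostatin M, by 1.63. Tnfsf9 passed the filter only through libraries outside IL10R. Il12b, the p40 chain that IL-12 and IL-23 share, was too low for the filter. It stood at 10.9, 5.64, 5.09 and 4.80 in IL10R_abx, against 42.9, 33.2, 42.5, 12.9 and 8.85 in IL10R, and in the fit without a filter changed by -1.76 (SE 0.68, limma adjusted p = 0.0344), while the groups overlapped at IL10R_68. Il23a, Il12a, Il6 and Il22ra2 had no row in the table and were not analysed here.

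Genes that IL-10 and STAT3 are known to induce rose in IL10R_abx, while Il10ra itself was low in both groups. Of 23 tested members 18 rose and 1, Tnip3, an inhibitor of NF-kB signalling, fell (-1.82), with a median of 1.62. Il10 stood at 102, 137, 52.6 and 90.3 in IL10R_abx, against 18.2, 15.6, 13.7, 19.7 and 24.1 in IL10R, a change of 2.27 (SE 0.26, limma adjusted p = 5.70e-07). Socs3, the STAT3 feedback inhibitor, stood at 2736, 2413, 1584 and 1698 in IL10R_abx, against 581, 558, 721, 374 and 355 in IL10R, a change of 2.04 (SE 0.24, limma adjusted p = 6.92e-07). The groups did not overlap in either gene. Il10 passed the filter only through libraries outside IL10R, so the share of the list that rose is partly set by the filter. Batf and Arid5a, a transcription factor and an RNA-binding protein, changed by 3.25 and 3.06. Etv3, a repressor induced by IL-10, changed by 2.25 and Ier3, an immediate-early gene, by 2.07. Relative to macrophage markers 7 members were higher and 5 lower (2.13% and 87.5% over all genes), Il10 at 0.70 (SE 0.27, limma adjusted p = 0.0173). The decoy and antagonist genes Il1rn and Il1r2 stood at 0.33 and -0.49 and did not pass.

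Interferon genes were called higher at a share near that of all genes. Among GTPases and regulators induced by interferon-gamma 5 of 19 tested rose (median 0.37), of 19 type I interferon-stimulated genes 7 rose (median 0.49), against 30.6% of all genes higher, and the rest of both lists did not pass. By CPM 5 of the interferon-gamma list were higher, and of the type I list 4 were higher and 1 lower. Of the 19 in each list 15 and 14 were lower relative to macrophage markers, against 87.5% of all genes. Irf1, the interferon regulatory factor, changed by 1.18, and the guanylate-binding proteins Gbp9 and Gbp7 by 1.04 and 0.89. Oas2, an antiviral sensor of double-stranded RNA, stood at 272, 433, 181 and 167 in IL10R_abx, against 71.5, 77.8, 42.5, 24.3 and 33.0 in IL10R, a change of 2.41 (SE 0.36, limma adjusted p = 1.73e-05). Of 16 tested MHC class I and immunoproteasome genes 5 rose and 1 fell (median 0.24), a higher share close to the 30.6% of all genes, with 0.81 for H2-D1 and 1.09 for B2m. By CPM 3 of them were higher and 3 lower (median 0.04). MHC class II presentation was more uniform: 9 of 10 rose (median 1.09). H2-Aa, an MHC class II alpha chain, stood at 24779, 27551, 12937 and 18621 in IL10R_abx, against 9302, 7066, 8052, 8097 and 8325 in IL10R, a change of 1.31 (SE 0.19, limma adjusted p = 7.62e-06). Cd74, the invariant chain, changed by 1.09, H2-DMa, which loads peptides, by 1.07, and the protease Lgmn by 1.86. Relative to macrophage markers 6 of the 10 class II genes were lower, against 87.5% of all genes.

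Genes of monocytes and other white cells went both ways. Of 12 tested monocyte markers 6 fell and 3 rose (F13a1, Itga4 and Thbs1), with a median of -0.57. The fallers included Cd177 (-5.07), which is best known from neutrophils and passed the filter only through libraries outside IL10R_abx. Plac8, a protein of classical monocytes, stood at 56.6, 282, 103 and 196 in IL10R_abx, against 1479, 1290.1, 985, 882 and 559.8 in IL10R, a change of -2.87 (SE 0.37, limma adjusted p = 3.52e-06). Ccr2 stood at 111, 103, 232 and 424 in IL10R_abx, against 276, 189, 275, 188 and 204 in IL10R, and its change of -0.28 (SE 0.32, limma adjusted p = 0.477) did not pass. The treated libraries differed among themselves in Ccr2, with IL10R_abx_160 and IL10R_abx_161 below all untreated libraries and IL10R_abx_497 above them. Of 5 tested dendritic cell markers 4 rose (median 1.66), such as the activation marker Cd83 (2.17) and the transcription factor Irf4 (1.66). Among the risers Clec10a is also in the resident macrophage list. A shorter dendritic cell panel had 2 listed genes, Ccr7 and Amica1. Their summed share was 0.00763% to 0.0112% in IL10R_abx, against 0.0105% to 0.0136% in IL10R. Only Amica1 of this panel was tested, and it was not called (-0.14). Of the B and plasma cell genes Cd22 and Cd79b rose (1.78 and 1.75) and Jchain, the joining chain of secreted antibody, fell (-1.60). Of 17 tested stromal and endothelial markers 10 fell and 1 rose (median -0.77). The Jchain call was lost without IL10R_abx_160, IL10R_abx_161 or IL10R_27 (-1.36, -1.17 and -1.41, limma adjusted p = 0.072, 0.111 and 0.0525).

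Most lysosomal genes rose in IL10R_abx, while antimicrobial and oxidative genes went both ways. Of 39 tested lysosome and phagocytosis genes 36 rose (median 1.04), such as the glycoprotein Cd68 (2.25) and the protease Ctsb (1.97). Ncf1 and Ncf4, cytosolic subunits of the phagocyte NADPH oxidase, changed by 1.51 and 0.81, and the phagosomal metal transporter Slc11a1 by 1.51. In that antimicrobial and oxidative list 10 of 17 rose and 5 fell (median 0.81). Relative to macrophage markers 4 lysosome genes were higher and 22 lower, and 14 of the 17 antimicrobial and oxidative genes were lower. Over all genes 2.13% were higher and 87.5% lower on that scale. The medians of the 2 lists were -0.53 and -0.76, against -1.54 over all genes. Of 29 bacterial sensing and NF-kB genes 21 rose and 2 fell (median 1.03), with 1.89 for Tlr2, a receptor for bacterial lipoproteins, 2.35 for the RNA receptor Tlr8, 1.31 for Rela and 1.23 for Nfkb2. Relative to macrophage markers 1 of these was higher and 18 lower, beside the same 2.13% and 87.5% of all genes. Of 14 activation and co-signalling genes 12 rose (median 1.37), among them the inhibitory receptors Vsir (1.65) and Sirpa (1.498). Of 15 complement and coagulation genes 10 rose and 2 fell (median 1.65), with 2.10 for properdin, Cfp.

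Genes that handle iron, lipid mediators and lipids changed in both directions. Of 16 tested iron and heme genes 13 rose and 3 fell (median 1.37). Hmox1, heme oxygenase, stood at 1154, 1602, 612 and 552 in IL10R_abx, against 127, 104, 127, 125 and 189.8 in IL10R, a change of 2.75 (SE 0.28, limma adjusted p = 2.71e-07), and Trf, transferrin, changed by 2.17. The fallers were the transferrin receptor Tfrc (-1.95), the iron exporter Slc40a1 (-1.06) and the glutathione enzyme gene Gclm (-1.40). Alox5 and Alox5ap, the lipoxygenase and its partner that start leukotriene synthesis, changed by 3.52 and 2.72. Alox5 stood at 150.2, 137, 163 and 109.5 in IL10R_abx, against 3.90, 6.22, 14.4, 15.2 and 29.0 in IL10R, with no overlap. It passed the filter only through libraries outside IL10R. In the prostanoid and leukotriene list 10 of 15 rose and 2 fell (median 1.34), and Tbxas1, thromboxane synthase, changed by 1.61. Of the lipid genes 9 of 22 rose (median 0.24, against 30.6% of all genes higher and 27.3% lower), such as the scavenger receptor Lrp1 (1.46) and Apoe (1.36), and 6 fell, such as the desaturase Scd2 (-1.92), with 9 higher and 9 lower by CPM. Of 8 Fc receptor genes 6 rose (median 1.58), with 2.25 for the neonatal Fc receptor Fcgrt, 1.92 for the signalling chain Fcer1g and 1.86 for the IgG receptor Fcgr3, and Pigr, an epithelial gene, fell. Of 7 vitamin A and aryl hydrocarbon genes 6 rose (median 1.11), with 1.93 for the retinaldehyde reductase Dhrs3 and 1.66 for Tiparp. Timp2, an inhibitor of matrix proteases, and Tgfb1 changed by 2.08 and 1.61, in a matrix and growth factor list where 11 of 22 rose and 3 fell (median 0.67).

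Most tested genes of energy metabolism fell. All 41 tested genes of the respiratory chain and ATP synthase were lower (median -0.87), each by a modest amount. Cox6b1, a subunit of cytochrome oxidase, stood at 494, 532, 639 and 651 in IL10R_abx, against 1147, 1254, 1249, 1338 and 1211 in IL10R, a change of -1.11 (SE 0.12, limma adjusted p = 1.67e-07). Cyc1, cytochrome c1, stood at 575, 767, 431 and 430.5 in IL10R_abx, against 1443, 1526, 1181, 1504 and 1284 in IL10R, a change of -1.37 (SE 0.17, limma adjusted p = 1.03e-06), and neither gene overlapped. Of 17 glycolysis and hypoxia genes 11 fell and 3 rose (median -0.74), with -1.01 for lactate dehydrogenase A and -0.96 for hexokinase Hk1, against 1.78 for the myeloid hexokinase Hk3. Of 23 cell cycle genes 7 fell and 2 rose (median -0.34), near the 27.3% lower over all genes, with -1.40 for cyclin A, Ccna2. By CPM 10 of them were called, all lower. Of 29 proteasome genes 13 fell with the deposited factors and 24 by CPM (medians -0.36 and -0.56). Of 46 cytosolic ribosomal protein genes 4 fell and 2 rose (median -0.12), against 17 lower calls by CPM, so their call depends on the scaling. Relative to the 15 epithelial markers 39 of the 41 respiratory genes were higher in IL10R_abx, and relative to macrophage markers 41 were lower. These counts lie near the shares of all genes on the 2 scales, 92.8% higher and 87.5% lower.

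Immediate-early genes, which cells switch on within minutes of stimulation and also during tissue dissociation, rose: 28 of 34 were higher and 1 lower (median 1.35). Junb, an AP-1 subunit, stood at 5548, 4008, 4089.5 and 5052 in IL10R_abx, against 780.2, 1078, 1544, 1368 and 1686 in IL10R, a change of 1.89 (SE 0.21, limma adjusted p = 3.16e-07). The transcription factors Klf2 and Nr4a1 changed by 2.64 and 2.10. Of 20 ER stress genes 9 rose and 2 fell (median 0.43), or 6 and 2 by CPM, with 2.84 for the stress factor Ddit3 and 1.36 for the chaperone Hspa5. The part of cell handling in these rises was not tested. Relative to macrophage markers 5 of the immediate-early genes were higher and 7 lower, against 2.13% and 87.5% of all genes.

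**Figure D4:**
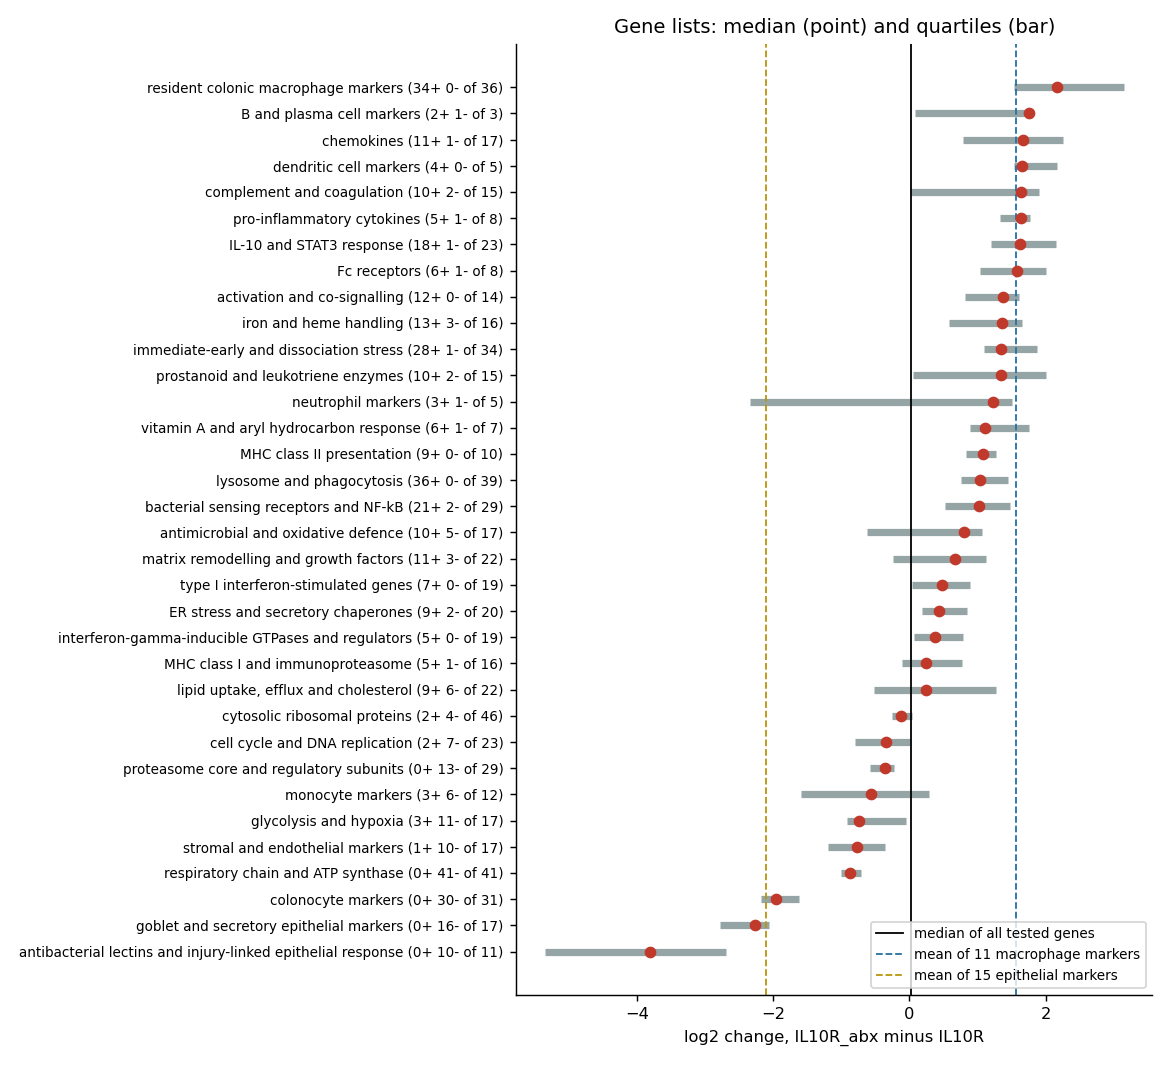
Median (point) and quartiles (bar) of the log2 change in IL10R_abx minus IL10R for the gene lists with at least 3 tested members. Numbers beside each name count members called higher (+) and lower (-) of those tested, and vertical lines mark the median of all tested genes (0.03) and the means of 11 macrophage markers (1.57) and 15 epithelial markers (-2.10).

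Many genes also differed when control libraries with and without antibiotics were compared. In littermate_abx against CX, which share no library with the groups above, 2250 of 6612 genes were called (34.0%), 1094 higher (16.5%) and 1156 lower (17.5%). Of these, 996 were higher and 1060 lower in both comparisons and 4 went opposite ways, which is 53.8% of the calls in deficient libraries and 91.4% of those in controls. Across the tested genes the changes had a Pearson r of 0.87 and a Spearman rank correlation of 0.87, as a description, since genes are not independent and all antibiotic libraries had fewer epithelial reads. CX and littermate_abx are not labelled as 1 line, so the control difference also holds any difference of line. Cd163 changed by 4.19 in deficient and 3.52 in control libraries, Lyve1 by 3.71 and 3.48, Ccl2 by 4.11 and 2.60, and Agr2 by -2.88 and -3.06. Of the resident markers 21 of 36 rose in controls (median 0.93), and of the colonocyte markers 27 of 31 fell (median -1.98), against a median of 0.04 over all genes. The summed epithelial share was 0.256% to 0.384% in littermate_abx, against 1.49% to 1.66% in CX, and the macrophage share was 2.34% to 2.62% in littermate_abx, against 1.71% to 1.73% in CX.

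Large differences between the 2 changes were seen in antibacterial and injury genes, but they did not pass the test. Reg3b stood at a log2 value of -6.52 in the deficient and 1.02 in the control comparison, where its counts were near 0 (0, 8.13 and 4.21 in littermate_abx, against 1.04 and 0.569 in CX). The values were -4.69 and 1.53 for Nos2, -5.68 and 0.65 for Clca4b, -6.27 and -0.08 for Reg3g, and -3.91 and 0.82 for Lrg1, and none of the control values passed. The differences of these differences were -7.54 (SE 2.33), -6.22 (SE 1.49), -6.33 (SE 1.67), -6.19 (SE 1.999) and -4.73 (SE 1.37), and none passed (limma adjusted p = 0.207, 0.0928, 0.115, 0.229 and 0.167). These 5 were singled out after their values were seen.

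In the test of the difference between the changes, 7 genes were called (0.106%; 699 at an unadjusted p under 0.05), each higher in the deficient comparison with a limma adjusted p = 0.0426. Gbp2b, an interferon-inducible guanylate-binding protein, stood at 305, 387, 187 and 209 in IL10R_abx, against 152, 174, 126, 147 and 135 in IL10R, while it was 62.0, 70.4 and 55.8 in littermate_abx, against 92.2 and 184 in CX. Its changes were 0.83 and -1.05, so it rose in deficient libraries under antibiotics and fell in controls, a difference of 1.88 (SE 0.36). Amica1, an adhesion molecule of leukocytes also called JAML and one of the dendritic cell markers, stood at -0.14 in the deficient comparison, which did not pass, and fell in controls (-1.995), a difference of 1.86 (SE 0.35). The other 5 rose in the deficient comparison and had smaller positive values in controls, where Hfe and Batf3 did not pass: Fcgrt (2.25 and 0.86), Hfe, an iron regulator that binds the transferrin receptor (1.85 and 0.43), Rab11fip5, an effector of endosome recycling (2.43 and 1.12), Fcgr3 (1.86 and 0.58) and Batf3, a dendritic cell transcription factor (1.54 and 0.43). CX has only 2 libraries, and this count was unstable: it was 24 by edgeR and 100 by DESeq2, 73 without IL10R_68, 15 without IL10R_abx_495 and 1 without CX_1. Leaving out any other of the 14 libraries, or scaling to CPM, gave 0 calls by limma, with 577 to 812 genes at an unadjusted p under 0.05.

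**Figure D5:**
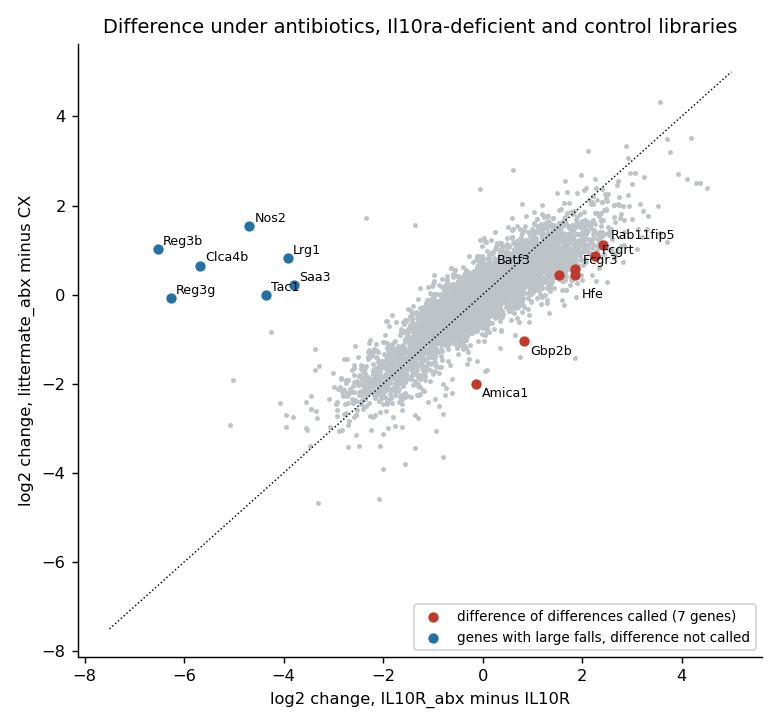
log2 change of each tested gene in IL10R_abx minus IL10R (horizontal) and in littermate_abx minus CX (vertical), with the line of equal change dotted, 7 genes whose changes differed in red and 7 genes with large falls in deficient libraries in blue. The points run along the diagonal (Pearson r 0.87 across genes), and Reg3b, Reg3g, Clca4b and Nos2 lie far to its left at control changes of -0.08 to 1.53.

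Few genes were called between the deficient libraries and littermates that also drank antibiotics. In IL10R_abx against littermate_abx 2 of 6612 genes were called (0.0302%, or 0.0151% in each direction), with 997 at an unadjusted p under 0.05. These were Il10ra (-4.86, limma adjusted p = 0.000216) and Gbp2b (2.04, limma adjusted p = 0.000216). Gbp2b was higher in 4 of 4 deficient libraries than in any of the 3 littermate libraries. With 4 and 3 libraries a median gene had an SE of 0.21 on the log2 scale, so small differences would not be called. The count was 385 without IL10R_abx_497, 24 without IL10R_abx_495, 4 without littermate_abx_491, 45 by DESeq2 and 2 by edgeR. Reg3b stood at 78.4, 5.64, 124 and 0 in IL10R_abx, against 0, 8.13 and 4.21 in littermate_abx, a log2 value of 2.14 that did not pass, with IL10R_abx_160 and IL10R_abx_495 above the littermate range. Cd163 and Ccl2 stood at -0.31 and -0.11 in this comparison and did not pass.

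The IL10R_P19 libraries carry in their title the name of the chain particular to IL-23, and their labels do not say what was done to it. They share the 5 IL10R libraries as controls with the antibiotic comparison, so the values are only set side by side. Reg3b changed by -6.52 in IL10R_abx and by -7.39 in IL10R_P19, Reg3g by -6.27 and -6.82, Clca4b by -5.68 and -5.35, and Nos2 by -4.69 and -4.09. Resident genes and chemokines had log2 values of 4.19 and 1.09 for Cd163, 4.51 and 1.76 for Folr2, and 4.11 and 0.73 for Ccl2. These 3 did not reach significance in IL10R_P19 (limma adjusted p = 0.136, 0.137 and 0.176), whose epithelial share was 1.49% to 1.71%. The difference between the 2 sets of changes was not tested here.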

How the data were processed

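RNA was sequenced from sorted colonic macrophages, and 18 libraries of 1 deposited table were used. The authors deposited 1 signal value per gene and library. In every library 100% of these values were whole reads divided by 1 factor, within 0.01 read, so they are called normalised read counts here. The submitters' processing notes name bcl2fastq, HISAT 0.1.6, HOMER and the mm9 build, with no order or settings. Rows without a gene name (15605) were left out, and 8559 of 8816 symbols were found in GENCODE M21. Counts of replicate pairs differed by a chi-square of at least 3.58 per degree of freedom, so no library was a copy of another. Each was counted as a sample of its own, although these values cannot tell separate animals from separate preparations of the same animal.

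Values were tested with limma 3.58.1 (R 4.3.3) on log2(value + 0.997), with the spread shared over 18 libraries, robust variances and Benjamini-Hochberg adjustment over the 6612 genes whose mean was above 40.4. The design allowed for counts or normalised values, and limma was used because the table holds normalised values. edgeR 4.0.16 and DESeq2 1.42.0 on recovered reads were alternatives. Others were the pseudocount, the filter, the libraries fitted, the variances, library weights, scaling to CPM and leaving out libraries. The fits were tested on simulated data. Genes were named by rule: the 12 largest called changes in each direction with a mean above the median and no overlap, up to 4 called genes of each of 36 lists with the smallest adjusted p, and a short set named always. Genes outside it, such as Il10, Socs3, Ccr2, S100a9, Il18, Cxcl5, Ccl17, Tfrc and Axl, were chosen after their values were seen. Members and lists were chosen with earlier results of these data known. The comparisons per macrophage and per epithelial marker, and those without 2 libraries, were added after seeing the data. Intervals for counting error are not given, and a library at 0 allows up to 3 reads.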

Additional observations from a re-analysis of the deposited data

Results flagged for a closer look

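Of 306 gene and group combinations looked at, 21 had 1 library whose gap to the nearest other was large against the range of its group, 11 in IL10R_abx and 10 in IL10R. Chance gives such a gap in about 1 of 20 groups. No cause was tested for any of them. IL10R_abx_160 lay above the rest of its group in C1qa (13168, others 10790.0 to 10861). IL10R_abx_160 lay below the rest of its group in Ebi3 (146, others 269 to 273) and Rpl3 (37.0, others 62.1 to 64.4). IL10R_abx_161 lay above the rest of its group in Ccl2 (1166, others 725 to 775), Clec10a (261, others 165 to 172) and Gbp9 (134, others 82.6 to 86.5). IL10R_abx_161 lay below the rest of its group in Cd163 (457, others 632 to 662) and Tff3 (139, others 235 to 258). IL10R_abx_495 lay below the rest of its group in H2-DMa (1880.3, others 2141 to 2184), Krt8 (536, others 868 to 952) and Pla2g15 (289.9, others 442 to 472). IL10R_27 lay above the rest of its group in Fcer1g (525, others 265 to 322) and Itga4 (83.2, others 73.4 to 75.2). IL10R_27 lay below the rest of its group in Pigr (2749, others 4090.1 to 4777) and Rara (36.4, others 49.1 to 51.9). IL10R_32 lay below the rest of its group in Tnfsf9 (15.6, others 31.1 to 35.1). IL10R_67 lay below the rest of its group in Atf4 (578, others 702 to 732) and Hspa5 (926, others 1236 to 1286). IL10R_68 lay above the rest of its group in Retnlb (2945, others 469 to 769) and Stab1 (255, others 116 to 137). IL10R_68 lay below the rest of its group in Tiparp (44.2, others 50.7 to 53.3).

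The change with antibiotics differed between deficient and control libraries in 7 genes, by the limma test of the difference between IL10R_abx minus IL10R and littermate_abx minus CX (limma adjusted p = 0.0426 for each). The differences were 1.88 for Gbp2b, 1.86 for Amica1, 1.42 for Hfe, 1.39 for Fcgrt, 1.31 for Rab11fip5, 1.28 for Fcgr3 and 1.11 for Batf3. For Gbp2b all 4 IL10R_abx libraries lay above all 5 IL10R libraries, while all 3 littermate_abx libraries lay below both CX libraries. CX holds 2 libraries, and the labels do not place CX and littermate_abx in 1 line. The control difference can therefore hold more than antibiotics. The count of 7 was also unstable, from 0 to 73 with 1 library left out.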

How the results depend on the processing

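In IL10R_abx against IL10R the count of called genes ran from 3420 to 4901 across the alternatives, and from 3616 to 3839 with 1 library left out, against 3823. Between 85.1% and 99.8% of the 3823 genes were called again in each setting, every one in the same direction. Over the named genes of this comparison and their alternatives 2845 values kept their side of the threshold, 43 lost it and none changed direction. The count of genes whose 2 changes differed (7) was 16 with only the groups compared, 42 with library quality weights, 24 by edgeR and 100 by DESeq2 on recovered reads, and 0 by limma on CPM (697 at an unadjusted p under 0.05). It was 2 without IL10R_abx_160 and IL10R_abx_161 and 0 without IL10R_27 and IL10R_abx_161 (805 unadjusted), and ran from 0 to 73 with 1 library left out. The count against littermate_abx (2) was 45 by DESeq2 and ran from 2 to 385 with 1 library left out. The cause was not tested. The higher calls per macrophage marker (141) ran from 118 to 141 with 1 library left out. No paired analysis was possible because the groups compared share no replicate numbers. A term for sex was not run, since reads of Y-linked genes were present in all 18 libraries of the table and no such term could be fitted. Genes with few reads in IL10R_abx, such as Nos2 with 10, have fold changes limited by depth.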
